A study of Homo sapiens with 62 samples.

Results

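The genes described here are 8 transcription factors of squamous and basal epithelium, TP63, TFAP2A, TFAP2C, GRHL1, GRHL2, GRHL3, OVOL1 and SOX2. They were taken by name from the gene tables of both cell lines, in which all 8 were found among 29794 genes. Both lines derive from pancreatic ductal adenocarcinoma, T3M-4 as a model of its basal-like form and AsPC-1 of its classical form. For KLF5 degradation, endogenous KLF5 had been knocked out in both lines and replaced by an introduced KLF5 fused to FKBP12 F36V. That tag lets a small molecule direct the protein to degradation, and the matched control libraries carry the same changes. The paper does not state whether the cells of the other treatments carried them. Each line stood for its subtype alone, and the tagged KLF5 was expressed from a lentiviral vector.

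RNA made during the last 2 h of culture was labelled with 4-thiouridine and read as T>C conversions (SLAM-seq). A T>C read is a read carrying the conversions that mark labelled RNA, and all reads also include RNA made before labelling. The 62 libraries (AsPC-1 42, T3M-4 20) fell into 12 groups. Cells of each line were treated for 4 h with dTAG (dTAGv-1, which degrades the tagged KLF5) or NEG (its inactive control dTAGv-1-NEG), with 10 libraries per group in AsPC-1 and 4 in T3M-4. They were also treated for 4 h with CB-6644, an inhibitor of the RUVBL1/2 ATPases, or the solvent DMSO, with 5 libraries per group in AsPC-1 and 4 in T3M-4, and with NVP-2, an inhibitor of the elongation kinase CDK9, in 4 libraries per line. AsPC-1 was further treated with CB-6644 or DMSO for 12 h, in 4 libraries each. The titles number the libraries, from 1.1 to 3.4 at 4 h and from 1 to 4 at 12 h. Libraries of 1 contrast at 4 h with the same first digit are called an experiment here, which is a reading of the number that the labels do not spell out. Such libraries may share a culture, so p-values here measure the spread between libraries.

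TP63 encodes p63, which maintains the basal layer of stratified epithelia. TFAP2A and TFAP2C encode AP-2 factors of the ectoderm and epidermis, and GRHL1, GRHL2 and GRHL3 encode Grainyhead-like factors that act on genes of cell junctions and the skin barrier. OVOL1 is a zinc finger repressor that keeps epithelial cells from taking on mesenchymal features, and SOX2 is a factor of stem cells and of squamous tumours. KLF5 belongs to a family of zinc finger proteins that bind C-rich sequences, often written as CACCC or GC boxes.

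A library of AsPC-1 held 2.24e+06 to 1.83e+07 T>C reads, and a library of T3M-4 held 3.71e+06 to 2.80e+07. The epithelial keratin genes KRT8, KRT18 and KRT19 were abundant in both lines. Medians of all 6 classical markers were higher in AsPC-1 and of all 5 basal-like markers in T3M-4. The classical marker HNF4A had a median of 14.9 CPM (reads per 1000000 reads of the library, after TMM scaling) of all reads in AsPC-1 and 0.18 in T3M-4, and the basal keratin gene KRT5 had 0.014 and 275.1, but the classical markers MUC1 (38.2 and 33.2) and AGR2 (49.9 and 44.8) lay close in both lines. The leukocyte gene PTPRC and the endothelial gene PECAM1 had medians below 1 CPM in T3M-4, as did 3 of 4 fibroblast genes, whereas COL1A1, a collagen gene of fibroblasts, had 6.47 there and 0.0097 in AsPC-1. KLF5 itself, whose 3′UTR reads do not measure the degraded protein, was higher with dTAG in both lines. The difference was 0.60 log2 (SE 0.11) in AsPC-1, with an edgeR adjusted p of 0.00284, and 0.90 (SE 0.15) in T3M-4, with an adjusted p of 0.0258.

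To show the kind of sequence a KLF factor could meet near these genes, the letters CCNCNCCC were searched on both strands of RefSeq promoters (GRCh38.p14), from 250 bases before to 50 after each start site. Of 35116 promoters, 56.2% held a match. TP63, TFAP2A, GRHL1, GRHL3 and SOX2 were in that table. TP63 had 0 matches in its 1 window, at the upstream start, while the internal start of the shorter ΔNp63 form used by basal cells was not searched. GRHL1 and SOX2 had 5 matches each, and for TFAP2A and GRHL3, which have a pair of start sites each, the counts were 1 and 11, and 3 and 0. Below are 30 bases around a match in TFAP2A (chr6:10412381-10412410, minus strand) and in SOX2 (chr3:181711802-181711831, plus strand), with the match in capitals.
TFAP2A: gggctcctctcCCTCGCCCacactttcttt
SOX2: cgcgggaggccCCGCCCCCtttcatgcaaa
A match is a description of letters and was not tested as a binding site.

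The first question was how far the factors are made in each line, compared under NEG. By edgeR, 7 of the 8 were higher in T3M-4, and TFAP2A was not called. TP63, TFAP2C, GRHL2 and SOX2, with next to no reads in AsPC-1, passed the filter on low counts through T3M-4 alone. Their call as higher was fixed by that filter and is no test. In AsPC-1, TFAP2A had 424 to 887 CPM of T>C reads (median 753, n = 10), and in T3M-4 it had 598 to 685 (n = 4). The groups overlapped, and the difference was −0.08 log2 (SE 0.19, edgeR adjusted p = 0.74). Among all 13323 genes tested, 56.3% differed between the lines in either direction and 29.5% were higher in T3M-4. In all reads 62.2% of genes differed, and the same 7 members were called, with TFAP2A at −0.30 log2 (SE 0.15, edgeR adjusted p = 0.096), and at −0.39 and called without AsPC-1 experiment 1. All reads of TFAP2A were at 174 ± 32.4 CPM in AsPC-1 (SD, n = 10) and 149.95 ± 1.89 in T3M-4 (n = 4). It is transcribed from the minus strand at chr6:10393186-10419659 (hg38), and the reads counted fall in its 3′UTR exons, as for all genes here.

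TP63, TFAP2C, GRHL2 and SOX2 had next to no reads in AsPC-1. TP63 had 0 T>C reads over the 10 AsPC-1 NEG libraries and 4332 over the 4 of T3M-4, so its share of T>C reads (gene at chr3:189631389-189897276, plus strand) was at least 2294-fold higher in T3M-4, with a floor of 3 counts over the group, and the 95% interval of its count set the lower limit at 1866-fold. TFAP2C had 3 and 4053 reads, a ratio of 2147 (95% interval 735 to 10409). GRHL2 had 1 and 939 reads, a ratio of 1492 (268 to 58929), and SOX2 had 2 and 956, a ratio of 759 (210 to 6271). All 3 TFAP2C and both SOX2 reads of AsPC-1 came from NEG library 3.2. Without it both genes had 0 reads in AsPC-1, and the ratios were at least 1889 and 445. In all reads TP63 had 32 reads in AsPC-1 and 19257 in T3M-4 under NEG, a lower ratio of 1181 (837 to 1727). These intervals cover counting error only.

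OVOL1, GRHL1 and GRHL3 were measured in both lines and did not overlap between them. How many of all genes did not overlap was not counted, and 29.5% of those tested were called higher in T3M-4. OVOL1 had 1.58 to 16.4 CPM in AsPC-1 and 82.2 to 170.0 in T3M-4, a difference of 4.01 log2 (SE 0.50, adjusted p = 4.7e-06). GRHL1 had 0.68 to 3.24 CPM in AsPC-1 and 4.39 to 9.12 in T3M-4, a difference of 2.04 (SE 0.37, adjusted p = 0.000219). GRHL3 had 0 to 4.67 and 14.1 to 28.3 CPM, a difference of 3.89 (SE 0.89, adjusted p = 0.00156). Reads of GRHL1 and OVOL1 could come in part from antisense RNAs that overlap their last exons, since the use of strand in counting is not given in the sources used here.

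The few reads of the scarce factors in AsPC-1 were unevenly spread. Summed over TP63, TFAP2C, GRHL2 and SOX2, the 5 second-numbered libraries of batch 2 (dTAG 3.2, NEG 3.2, NVP-2 1.2, and DMSO and CB-6644 2 at 12 h) had 29 to 37 of all reads each, and the other 36 had 0 to 10. In 274 other genes with high T3M-4 and near-absent AsPC-1 levels, the same 5 libraries had 5807 to 7901 reads and the others 67 to 624. The part of these reads in the results was not tested. Without NEG 3.2, OVOL1, GRHL1 and GRHL3 were still called between the lines. The calls of TP63, TFAP2C, GRHL2 and SOX2 were again fixed by the filter on low counts and tell nothing here.

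The next question was which factors changed within 4 h of KLF5 degradation. In AsPC-1 no member tested was called between the groups. TFAP2A was called only in alternative fits, such as one comparing libraries of the same number. With NEG, TFAP2A had 429 CPM of T>C reads in the lowest library, 754 at the median and 886 in the highest. With dTAG it had 252, 463 and 616. The ranges overlapped, but dTAG was lower in 10 of 10 libraries of the same number, by 0.14 to 0.98 log2. In experiments 1, 2 and 3 it was lower by 0.71, 0.44 and 0.63 on the ratio of means. How many of all genes fell in every pair was not counted, so this run is a description.

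**Figure D1:**
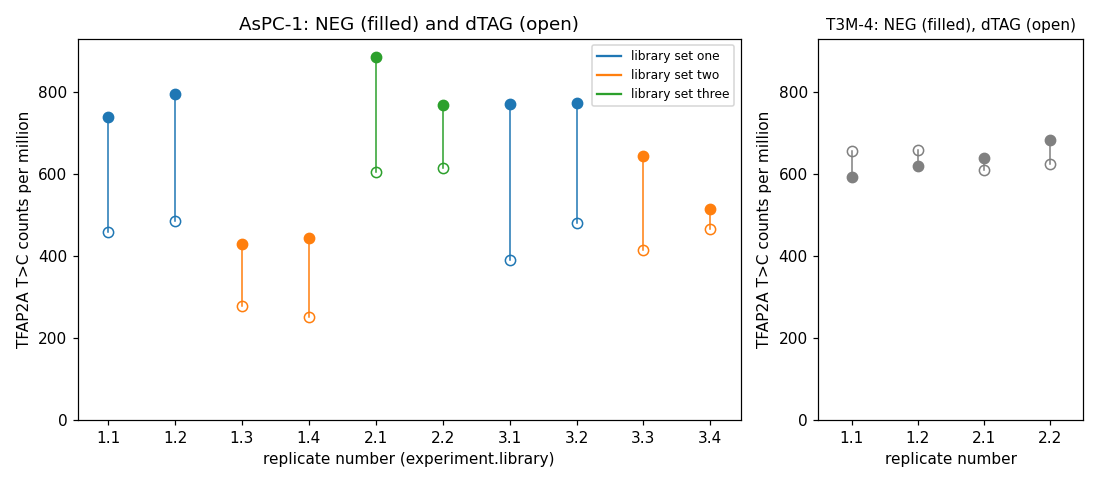
TFAP2A T>C CPM with NEG and dTAG in AsPC-1 and T3M-4, each line joining libraries of the same number. In AsPC-1 all 10 lines fall, and in T3M-4 the 4 pairs have 2 lower and 2 higher.

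The means were 677 ± 160 with NEG and 445 ± 119 with dTAG (SD, n = 10 each), a difference of −0.61 log2 (SE 0.17). Compared as separate groups this missed the threshold (edgeR adjusted p = 0.053), and 0 of the 4 members tested were called against 2.4% of 11696 genes, with an unadjusted p under 0.05 for 1 of the 4 and for 1413 genes. With the library number as a block, TFAP2A was called at −0.62 (SE 0.08, edgeR adjusted p = 0.00021), where 7.41% of genes were called. Libraries of the same number deviated together in 10 of 10 pairs. The NEG library closest to a dTAG library had the same number in 5 of 10. In the rest it came from the same experiment and the same set of libraries (sets are described below). This does not separate pairing by number from a shared experiment or a shared set. Without the libraries numbered 3.2 the adjusted p was 0.106 without the block and 0.00072 with it.

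The labelled share, the percentage of a gene's reads that are T>C, fell as well. TFAP2A had 35.7% ± 3.2 with NEG (SD, n = 10) and 28.1% ± 2.1 with dTAG (n = 9), a difference of −0.34 log2 (SE 0.06, limma adjusted p = 0.00072). The median over all 10980 genes tested was −0.27, and 43.4% of them were called, so this change stood near that of genes at large. OVOL1, GRHL1 and GRHL3 did not have enough reads in AsPC-1 for this test.

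GRHL1, GRHL3 and OVOL1 were low in AsPC-1 and not called. GRHL1 had 0.70 to 3.28 CPM with NEG and 0.80 to 3.39 with dTAG, OVOL1 1.58 to 16.6 and 2.01 to 13.4, and GRHL3 0 to 4.73 and 0 to 3.9998. The fitted differences were 0.41 (SE 0.33), −0.26 (SE 0.44) and −0.17 (SE 0.86) log2. The SE of GRHL3 is wide enough that a change of several fold could not be detected at this depth.

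In T3M-4 TFAP2A differed by less than its spread, at 634 ± 38 CPM with NEG and 637 ± 25 with dTAG (SD, n = 4 each), a difference of 0.01 log2 (SE 0.15). The test of the difference between the lines' effects gave 0.64 (SE 0.28, edgeR adjusted p = 0.84) in a fit that called 0.0426% of genes. With the library number as a block it gave 0.65 (SE 0.14, edgeR adjusted p = 0.043). That was the 1 call among 5 alternative fits, whose values ran from 0.55 to 0.65, so the call rests on the block.

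No member was called by edgeR after KLF5 degradation in T3M-4, where 0.834% of 13424 genes were, and DESeq2 called 340 genes and 0 members. The unadjusted p was under 0.05 for 3 of 8 members and for 957 of all genes, and TP63 had the smallest of the members. With dTAG its 4 libraries had 24.8, 38.2, 29.5 and 23.6 CPM, and with NEG 66.4, 51.8, 42.4 and 40.4. All dTAG libraries were below all NEG libraries, a difference of −0.79 log2 (SE 0.23, edgeR adjusted p = 0.25). How many of all genes did not overlap in this contrast was not counted. In all reads the ratio of TP63 means was −0.88 log2 in experiment 1 and −0.078 in experiment 2.

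SOX2 lay the other way, at 32.8, 32.7, 15.3 and 19.8 CPM with dTAG and 15.1, 19.2, 7.42 and 1.87 with NEG. It was higher in 4 of 4 pairs, but the groups overlapped and the difference was 1.204 log2 (SE 0.56, adjusted p = 0.73). GRHL2 was also higher in 4 of 4 pairs, with 12.6 to 19.9 CPM against 6.89 to 13.1, a difference of 0.63 (SE 0.27, adjusted p = 0.63). SOX2 and GRHL2 lay on the opposite side from TP63 in every pair, but neither they nor TP63 passed the test. How many of all genes keep the same direction over 4 pairs was not counted, so such runs are a description.

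GRHL3 had 7.48, 10.2, 11.1 and 15.3 CPM with dTAG and 21.2, 14.01, 14.8 and 28.2 with NEG, lower in 4 of 4 pairs, with a difference of −0.83 (SE 0.30, adjusted p = 0.47). OVOL1 was lower in 4 of 4 pairs by −0.50 (SE 0.30), TFAP2C differed by −0.20 (SE 0.25) with its experiments at 0.32 and −0.67, and GRHL1 by −0.17 (SE 0.34). No labelled share of a member was called either, against 0.0245% of genes.

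**Figure D2:**
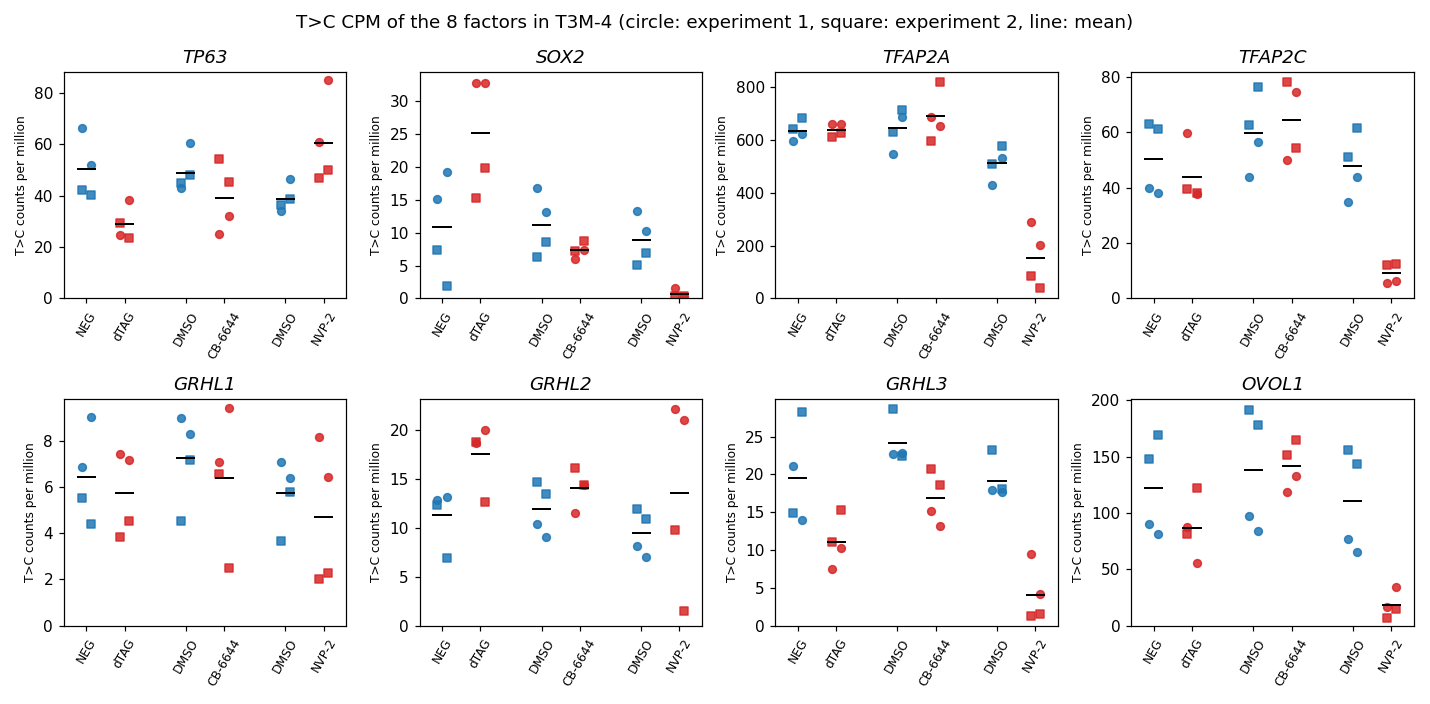
T>C CPM of the 8 factors in every T3M-4 library, by treatment. TP63 with dTAG lies below NEG in all 4 libraries, and SOX2 is lowest with NVP-2, at 0.21 to 1.58 CPM.

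Among genes fixed as linked to p63 in basal keratinocytes, 4 of 24 tested fell with dTAG in T3M-4 (0.745% of all genes did) and 0 rose, with a median of −0.57 log2 against 0.01 over all genes. Among them were LAMA3 (−1.83) and LAMB3 (−1.54), which encode laminin chains of the basement membrane, and TRIM29 (−1.82). In AsPC-1, which had no TP63 T>C reads under NEG, 4 of 15 fell (1.94% of all genes did) and 1 rose, among them LAMA3 (−2.22), FERMT1 (−1.40), ITGB4 (−0.95) and JAG1 (0.49), with a median of −0.42. Of genes linked to the AP-2 factors, CCND1, which encodes cyclin D1, fell in AsPC-1 by 0.52 log2 (edgeR adjusted p = 0.031), 1 of 9. None of the relatives of the members, and none of the Grainyhead- and OVOL-linked genes, was called in T>C reads with dTAG in either line.

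Inhibition of RUVBL1/2 with CB-6644 gave 0 called members, of 4 tested in AsPC-1 at 4 h, 4 at 12 h and 8 in T3M-4, and edgeR called 0.0% of all genes in each. DESeq2 called 0 genes in AsPC-1 at 4 h, 20 at 12 h and 5 in T3M-4, none a member. The unadjusted p was under 0.05 for 1 of the 8 members in T3M-4 (GRHL3) and for 482 genes in AsPC-1 at 4 h, 473 at 12 h and 569 in T3M-4. TFAP2A in AsPC-1 at 4 h had 328 to 829.5 CPM (median 662, n = 5) against 461 to 922 with DMSO (median 822) and a fitted difference of −0.36 (SE 0.28). At 12 h it had 594 to 861 CPM against 558 to 1024 (n = 4 each), a difference of −0.044 (SE 0.22), and the test of a change between the times gave 0.32 (SE 0.38). The scarce GRHL1, GRHL3 and OVOL1 overlapped between CB-6644 and DMSO at both times.

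In T3M-4, GRHL3 had 15.2, 13.2, 20.8 and 18.6 CPM with CB-6644 and 22.7, 22.8, 28.6 and 22.4 with DMSO. The groups did not overlap, and the difference of −0.51 log2 (SE 0.21) had an edgeR adjusted p of 0.994. How many of all genes did not overlap here was not counted. In all reads the ratio of GRHL3 means was −1.11 log2 in experiment 1 and −0.057 in experiment 2. SOX2 differed by −0.62 (SE 0.32), with −1.17 in experiment 1 and 0.11 in experiment 2, and TP63 by −0.32 (SE 0.25), at 25.1 to 54.2 CPM with CB-6644 and 43.0 to 60.3 with DMSO.

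GRHL2 was higher with CB-6644 in 4 of 4 pairs, by 0.24 (SE 0.23), and its groups overlapped at 11.5 to 16.1 and 9.09 to 14.7 CPM. TFAP2A (0.096, SE 0.17), TFAP2C (0.10, SE 0.23), OVOL1 (0.039, SE 0.28) and GRHL1 (−0.18, SE 0.40) each went both ways over the 4 pairs.

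Inhibition of CDK9 with NVP-2 lowered 5 of 8 factors in T3M-4 relative to other T>C reads, where 26.7% of 12242 genes were called, 14.2% lower and 12.4% higher. SOX2 moved furthest. It had 13.3, 10.2, 5.05 and 6.92 CPM with DMSO and 1.58, 0.21, 0.34 and 0.38 with NVP-2, a fall of 3.79 log2 (SE 0.75, edgeR adjusted p = 0.0048). The NVP-2 libraries held 6, 1, 1 and 1 SOX2 T>C reads, and with a library left out the difference was −4.91 (without NVP-2 library 1.1) to −3.46. With counts summed per experiment, 0 members were called without a block and 5 with the experiment as a block.

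OVOL1 had 76.6, 65.1, 156 and 143 CPM with DMSO and 16.3, 34.7, 7.04 and 15.1 with NVP-2, a difference of −2.58 (SE 0.50, adjusted p = 0.0043). TFAP2C went from 34.7 to 61.4 CPM down to 5.52 to 12.5, a difference of −2.40 (SE 0.39, adjusted p = 0.0018). GRHL3 differed by −2.19 (SE 0.60, adjusted p = 0.0205), and by −3.01 without NVP-2 library 1.1. In all of them every NVP-2 library was below every DMSO library. How many of all genes did not overlap in the NVP-2 contrasts was not counted.

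TFAP2A had 430, 531, 509 and 575 CPM with DMSO and 289, 200, 83.8 and 39.7 with NVP-2, a difference of −1.74 (SE 0.51, adjusted p = 0.0286). The drop was −0.97 in experiment 1 and −3.13 in experiment 2. TFAP2A was not called when any of the 4 DMSO libraries or NVP-2 library 2.1 was left out (−1.80 to −1.57), nor was GRHL3 without DMSO library 2.1 (−2.08), so that 3 of 8 members were called without the latter.

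TP63 lay on the other side and was not called by edgeR. It had 33.9, 46.6, 36.4 and 38.6 CPM with DMSO and 60.7, 85.1, 46.9 and 49.9 with NVP-2, all above DMSO, a difference of 0.64 (SE 0.29, edgeR adjusted p = 0.131, DESeq2 0.037). GRHL2 differed by 0.53 (SE 0.64), with 1.503 in experiment 1 and −1.02 in experiment 2, and GRHL1 by −0.26 (SE 0.59).

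These values are relative to the remaining T>C reads, and NVP-2 cut the labelled share of whole libraries to 2.24% in T3M-4 against 12.4% with DMSO. Scaled by all reads instead, all 8 members were called lower in T3M-4, as were 87.1% of genes, with TP63 at −2.26 and SOX2 at −6.79 log2 and a median of −3.11 over all genes. TP63 thus fell less than the median gene on that scale and SOX2 more.

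**Figure D3:**
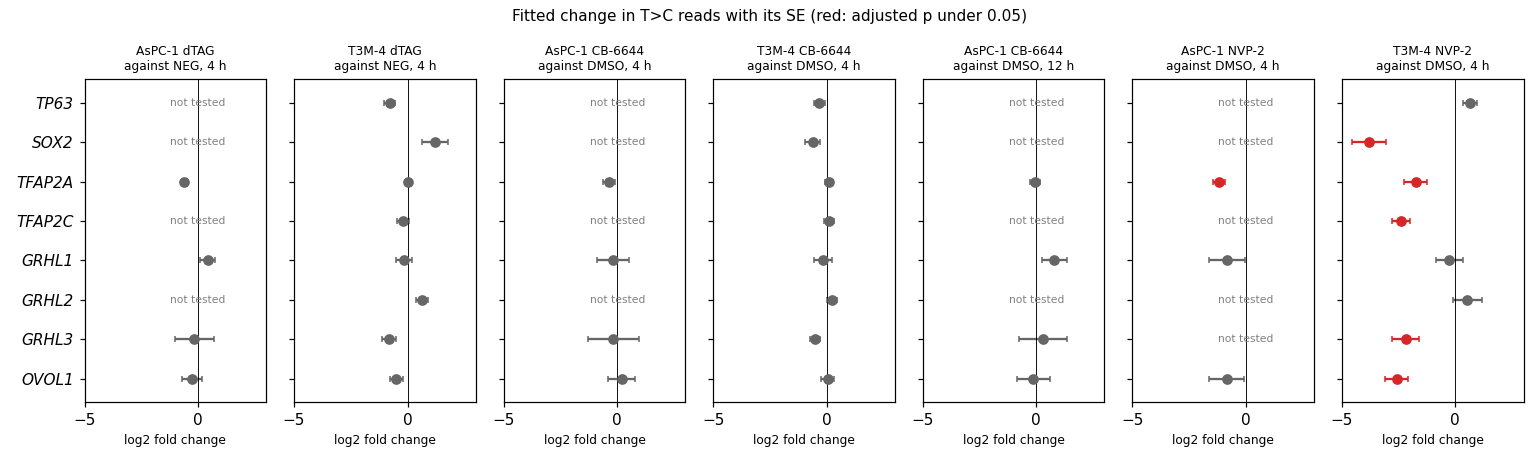
Fitted log2 differences of T>C reads with SE for each factor and treatment against its control. With NVP-2 in T3M-4 SOX2, OVOL1, TFAP2C, GRHL3 and TFAP2A lie between −3.79 and −1.74, and TP63 lies at 0.64.

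In AsPC-1, NVP-2 lowered TFAP2A from 381 to 769 CPM with DMSO to 186 to 356, with no overlap (−1.19 log2, SE 0.27, edgeR adjusted p = 0.0063), 1 of 3 members tested against 30.5% of genes. The NVP-2 libraries were all of batch 2 and the DMSO 4 h libraries of batch 1, so batch and drug cannot be told apart in that contrast. Against controls of batch 2 it was −0.96 (NEG of experiment 3, adjusted p = 0.02) and −1.10 (DMSO at 12 h, adjusted p = 0.018). GRHL1 (−0.82, SE 0.79) and OVOL1 (−0.85, SE 0.78) were not called. Of the 8 members, the test of a different NVP-2 effect in the lines called TFAP2C, in a fit that called 0.851% of genes, and that call rests on 4 T>C reads in a single AsPC-1 library.

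The labelled shares give the part of each factor's reads that carried T>C conversions. No unlabelled control was used here, so they are not a measured fraction of RNA made in the last 2 h. With DMSO in T3M-4, OVOL1 had 66.9% ± 1.9 labelled reads (SD, n = 4), GRHL3 59.4% ± 7.1, TFAP2A 51.7% ± 1.6, SOX2 47.0% ± 5.5 and TFAP2C 43.1% ± 8.2. GRHL2 had 38.1% ± 6.8, GRHL1 37.1% ± 11.2 and TP63 23.7% ± 7.9, against a median of 17.5% over all genes. OVOL1 was at the 97.7th percentile of genes and TP63 at the 65.4th, and GRHL2 and GRHL1 differed by less than their spread.

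With NVP-2 all 8 shares were called lower by limma, as were 93.4% of genes. SOX2 fell to 1.42% ± 1.03 (−4.94 log2) and GRHL3 to 5.69% ± 5.50 (−3.996). Both values moved with the pseudocount. SOX2 had 6, 1, 1 and 1 T>C reads with NVP-2, and a pseudocount of 5 gave −3.32 for SOX2 and −3.41 for GRHL3, with both still called. TP63 fell to 4.89% ± 3.08 (−2.47), with a median of −3.29 over all genes. In AsPC-1 TFAP2A fell from 39.8% ± 2.9 to 3.55% ± 1.47 (−3.57, median −3.18), the 1 member tested there, where 97.5% of genes were called.

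**Figure D4:**
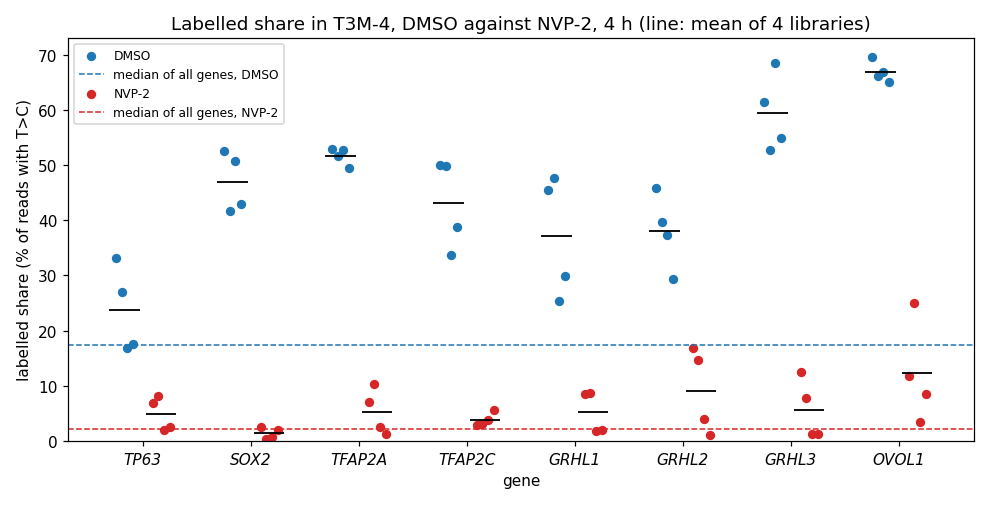
Percentage of reads that are T>C for each factor and library in T3M-4, with DMSO and with NVP-2 at 4 h. OVOL1 with DMSO lies at 65.0 to 69.6%, and SOX2 with NVP-2 at 0.41 to 2.56%.

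Of the genes related to the factors by family, 4 of 8 tested fell with NVP-2 in T3M-4, SOX21 (−3.16 log2), SOX9 (−2.98), SOX15 (−2.03) and UBP1 (−1.08), and 0 rose. Of the AP-2 linked genes 3 of 9 fell, the coactivator genes CITED2 (−4.66) and CITED4 (−2.39) and the inhibitor gene KCTD15 (−1.76). Of p63-linked genes 8 of 24 rose and 3 fell, with S100A2 at 2.02, COL17A1 at 1.91, LAMB3 at −2.61 and SFN at −2.16. Of Grainyhead- and OVOL-linked genes 3 of 14 rose, the epithelial surface genes EPCAM (2.73), ST14 (2.47) and CLDN7 (2.30), and 2 fell, among them CLDN4 (−2.69). Over all genes 12.4% were called higher and 14.2% lower in this contrast, so the 3 of 24 and 2 of 14 that fell lie near the background.

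Levels of OVOL1, GRHL1 and TFAP2A in AsPC-1 control libraries varied with sets of libraries that the treatments do not define. Clustering AsPC-1 libraries on 500 genes that left out the members gave 3 sets, and in control libraries OVOL1 had 0.28 to 0.58 CPM of all reads in the first (n = 8), 1.36 to 3.51 in the second (n = 7) and 1.69 to 2.27 in the third (n = 4). GRHL1 was lowest in the second set, at 0.14 to 0.27 against 0.46 to 0.90 and 0.56 to 0.93. TFAP2A had 182 to 255 CPM in the first set, 122 to 176 in the second and 166 to 206 in the third. The third set held the experiment 2 libraries of dTAG, NEG, CB-6644 and DMSO at 4 h. Within each other experiment of these groups, and at 12 h, lower-numbered libraries were in the first set and higher-numbered in the second. For NVP-2, experiment 1 was in the first set and experiment 2 in the second. At 4 h, CB-6644 library 1.2 was in the second set and DMSO library 1.2 in the first, so drug and set were not balanced there. With treated libraries included the sets overlapped, OVOL1 at 0.047 to 0.58 in the first (n = 16) and 0.35 to 3.51 in the second (n = 17), and GRHL1 at 0.26 to 0.90 and 0.14 to 0.34. The sets were made from the data, so this is a description with no test.

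**Figure D5:**
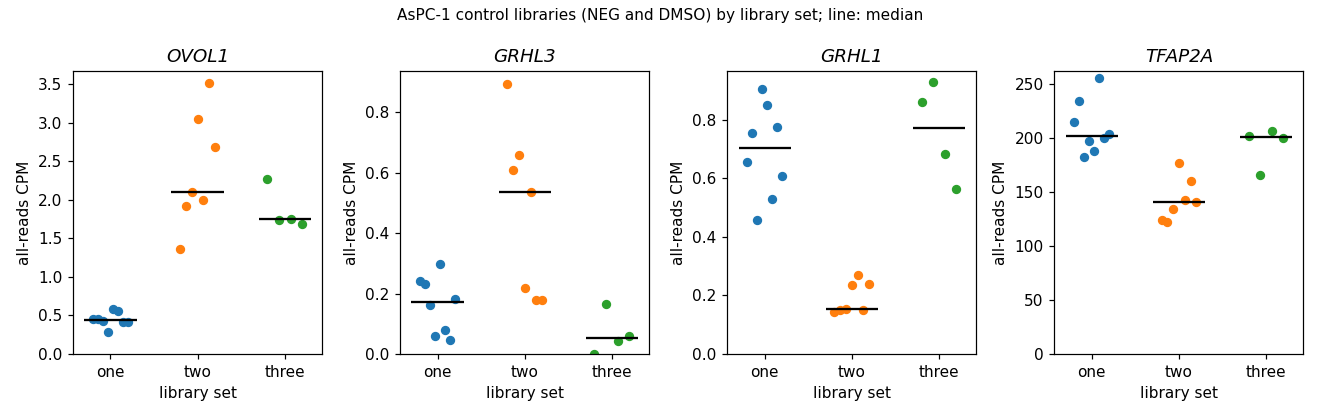
CPM of all reads of OVOL1, GRHL3, GRHL1 and TFAP2A in AsPC-1 control libraries (NEG and DMSO) by library set, with the median as a line. Among these control libraries OVOL1 in the first set (0.28 to 0.58) does not meet the second (1.36 to 3.51).

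Among the genes whose T>C levels followed TP63 most closely over the 16 T3M-4 libraries without NVP-2, of 9718 genes, were GJB2 (Pearson r = 0.92), IGFBP3 (0.92), PET117 (0.91) and ANXA3 (0.88). GJB2 encodes a connexin of epidermal gap junctions. The libraries share experiments and treatments, so these values are a description.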

How the data were processed

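SLAM-seq libraries (QuantSeq 3′-end, single-end, no spike-in, no unlabelled control used here) were mapped by the authors to hg38 3′UTR exons of GENCODE v44. They used slamdunk with its defaults and added up the reads of each gene. The deposited values are raw counts of T>C reads and of all reads for 29794 genes per line. The version and the use of strand are not given in the sources used here. The tables held 18 unnamed empty columns, and the all-reads column of AsPC-1 dTAG 3.1 was not used, since all 29794 values equal the T>C column of another library, leaving 61.

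T>C counts were tested with edgeR 4.0.16 (quasi-likelihood, default filter on low counts, TMM, Benjamini-Hochberg over all genes tested, called under 0.05), between the 2 groups compared, in R 4.3.3. CPM values are scaled within each comparison, so a control group differs slightly between comparisons. Labelled share was tested with limma 3.58.1 on log2((T>C + 0.5)/(all + 1)) for genes with at least 50 reads in every library. DESeq2 1.42.0, other scalings, filters, blocks and libraries left out were alternatives. The tests were tested on simulated data. Same-numbered libraries deviated together (every r over 0.1) for dTAG in AsPC-1 (10 pairs, r 0.26 to 0.54) and T3M-4 (4 pairs, r 0.17 to 0.45) and for CB-6644 in T3M-4 at 4 h and AsPC-1 at 12 h, but not in the other contrasts. In that order, the closest control library had the same number in 5 of 10, 3 of 4, 1 of 4 and 2 of 4 pairs. Named were all members, KLF5, up to 4 called genes of smallest p per list and contrast, and the 5 genes most like TP63, of which some are not reported here. The members and lists were chosen with earlier results of these data known. Library depth (2.24e+06 to 2.80e+07 T>C reads) limits precision for low genes, and intervals cover counting error only.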

Additional observations from a re-analysis of the deposited data

Results flagged for a closer look

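Of 64 groups tested for a library far from the rest, 4 were flagged, where chance flags about 1 in 20. GRHL3 in AsPC-1 dTAG library 1.3 had 4.00 CPM of T>C reads against 2.12 in the next. TFAP2C in T3M-4 dTAG library 1.1 had 59.9 CPM against 39.5, and GRHL2 in T3M-4 NEG library 2.2 had 6.89 CPM against 12.3 in the next lowest. GRHL3 in T3M-4 DMSO library 2.1 had 28.6 CPM against 22.8.

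The effect of NVP-2 on TFAP2C differed between T3M-4 and AsPC-1 by −7.64 log2 (edgeR adjusted p = 0.033), in a fit that called 0.851% of genes. In AsPC-1 it rests on 4 T>C reads in NVP-2 library 1.2 and 0 in the other NVP-2 and DMSO 4 h libraries, and without the second-numbered libraries of batch 2 it was not called. A fitted fold of such a gene depends on the prior count.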

How the results depend on the processing

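Of 4 members tested with dTAG in AsPC-1, 1 (TFAP2A) was called in place of 0 with DESeq2, scaling by all reads, the replicate block, an experiment block, an experiment and library set block, counts summed per experiment with an experiment block, and the block without libraries numbered 3.2. In T3M-4, 1 (SOX2, 1.53) was called for dTAG with counts summed per experiment and an experiment block. For NVP-2 in AsPC-1 the 1 call became 3 scaled by all reads and 0 in all reads. In T3M-4 the 5 calls became 8 scaled by all reads, 0 with counts summed per experiment and 3 to 5 with a library left out. Of the differences between lines, dTAG had 1 call with DESeq2 (TP63) and 1 with the replicate block (TFAP2A), and NVP-2 had 2 with DESeq2, and 0 in all reads or without the second-numbered AsPC-1 libraries of batch 2. The replicate block changed no other call of a member in T>C reads. Values that changed sign, none called in the fit reported, follow. For dTAG in AsPC-1, GRHL3 was 0.084 in all reads, 0.45 with the replicate block, 2.41 in experiment 2 alone, 0.15 and 0.25 summed per experiment without and with a block, and 0.21 with the library set block. In T3M-4, TFAP2A was −0.089 in batch 2 and TFAP2C 0.34 in batch 1. For CB-6644 in AsPC-1 at 4 h, GRHL1 was 0.23 with the library set block and 0.32 in experiment 1, GRHL3 0.20 with the replicate block, 0.40 with an experiment block and 3.36 in experiment 2, and OVOL1 −0.16 with the library set block and −0.24 in experiment 2. At 12 h GRHL3 was −0.0027 in all reads. In T3M-4 batch 2 gave OVOL1 −0.23, SOX2 0.10, TFAP2C −0.074 and TP63 0.10, and all reads gave TFAP2A −0.037 and TFAP2C −0.060. For NVP-2 in T3M-4, GRHL1 was 0.12 in batch 1, GRHL2 −2.24 scaled by all reads, −0.21 in all reads and −0.999 in batch 2, and TP63 −2.26 scaled by all reads. TFAP2A between lines was 0.0049 without AsPC-1 experiment 2. Of the differences between lines, GRHL2 for dTAG was 0.063 with DESeq2, 0.76 in all reads and 1.66 without the second-numbered libraries, without which GRHL2 was 0.49 and TP63 3.86 for NVP-2. For CB-6644, GRHL1 was 0.43 and TFAP2C −0.062 in all reads. With a library left out, ranges that crossed 0 were −0.30 to 0.042 (GRHL1) and −0.022 to 0.061 (TFAP2A) for dTAG in T3M-4. For CB-6644 at 4 h in AsPC-1 they were −0.49 to 0.21 (GRHL1), −0.86 to 1.13 (GRHL3) and −0.089 to 0.66 (OVOL1), at 12 h −0.29 to 1.36 (GRHL3), −0.61 to 0.52 (OVOL1) and −0.17 to 0.13 (TFAP2A), and in T3M-4 −0.43 to 0.070 (GRHL1), −0.15 to 0.22 (OVOL1), −0.012 to 0.16 (TFAP2A) and −0.020 to 0.24 (TFAP2C). The cause of these changes was not tested. Counts near 0 limit the scarce genes in AsPC-1.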
